A study of Mus musculus with 6 samples.

Results

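The 10 genes described here encode subunits of the BAF (SWI/SNF) chromatin remodelling complex that occur as neuron-type and other forms of the same position in the complex. They were found by gene symbol in the 6 deposited expression tables, and all 10 were present among 50383 gene IDs. The neuron-type genes are Actl6b, Dpf1, Dpf3, Ss18l1 and Smarcd3, and their paralogs are Actl6a, Phf10, Dpf2, Ss18 and Smarcd1. All 10 passed the filter of a mean of at least 1 FPKM (fragments scaled by transcript length and library size), and the rule that found them used no measured value, although the set was proposed with earlier results of these data known.

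RNA came from the lateral amygdala, a brain region used to form and keep fear memories, of male mice of a 129xC57BL/6 hybrid background aged 2 to 3 months. There were 3 groups of 2 libraries. Mice of the Baf53b siRNA group received a small interfering RNA against Baf53b, the older name of Actl6b, and the design text places an injection 1 day after training. The scrambled siRNA group received an RNA of shuffled sequence, and the treatment of the control group, like the training, is not described further in the sources used here. The labels name no mutant allele. They mention tissue of 4 mice without saying whether a library is a pool, so the p-values measure the spread between these libraries, which may be technical.

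BAF complexes use ATP to move nucleosomes and so change which DNA is open. As neural progenitors leave the cell cycle, several subunits are exchanged for paralogs: BAF53A (Actl6a) gives way to BAF53B (Actl6b), BAF45A (Phf10) and BAF45D (Dpf2) to BAF45B (Dpf1) and BAF45C (Dpf3), and SS18 to CREST (Ss18l1). BAF60C (Smarcd3) is a tissue-restricted form of BAF60, and BAF60A (Smarcd1) the widespread one. Complexes with BAF53B act in dendrite growth, synaptic plasticity and long-term memory. The microRNA miR-9-3p (also written miR-9*) and miR-124 repress Actl6a in neurons.

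The width of the deposited FPKM intervals implied 7.65 M and 8.51 M fragments behind the Baf53b siRNA libraries, 6.42 M and 10.7 M behind the scrambled siRNA libraries and 8.92 M and 10.3 M behind the control libraries. Markers checked the tissue: 9 general neuron markers summed to 2170 to 2438 FPKM in Baf53b siRNA, 2407 to 2457 in scrambled siRNA and 2382 to 2400 in control, and Slc17a7, the glutamate transporter of excitatory neurons, lay between 288 and 410 FPKM. Of 5 markers of the neighbouring striatum and central amygdala, 3 were tested. Limma called 1 of these, Prkcd, in Baf53b siRNA against control (adjusted p = 0.0477), and did not call Drd1 or Ppp1r1b. Prkcd had 6.28 and 8.93 FPKM in Baf53b siRNA, 4.51 and 4.37 in scrambled siRNA, and 3.14 and 2.46 in control. Whether the dissections differed was not tested. Microglia, leukocyte and 2 astrocyte markers also moved with the groups. The astrocyte gene Gfap had 170 and 178 FPKM in Baf53b siRNA, 45.1 and 47.3 in scrambled siRNA, and 16.9 and 18.3 in control. Aqp4 had 32.7 and 34.1 FPKM in Baf53b siRNA, 20.4 and 22.1 in scrambled siRNA, and 17.6 and 19.8 in control. Its limma adjusted p was 0.0446 for Baf53b siRNA against control and 0.341 against scrambled siRNA. The 7 astrocyte markers other than Gfap, with Aqp4 among them, summed to 967 and 958 FPKM in Baf53b siRNA, 975 and 906 in scrambled siRNA, and 832 and 936 in control. Oligodendrocyte markers summed to 940 to 961 FPKM in Baf53b siRNA, 985 to 1041 in scrambled siRNA and 729 to 916 in control. Oligodendrocyte precursor markers lay between 45.4 and 51.3 FPKM in every library. Microglia markers summed to 781 to 944 FPKM in Baf53b siRNA, 522 to 527 in scrambled siRNA and 308 to 309 in control. For 7 infiltrating leukocyte markers the sums were 176 to 362 FPKM in Baf53b siRNA, 17.2 to 22.6 in scrambled siRNA and 2.42 to 3.11 in control. Most of the sum in Baf53b siRNA came from Cd74 (211 and 102 FPKM), H2-Aa (95.9 and 43.4) and H2-Ab1 (44.6 and 21.9). Ccr2, Cd3e and Cd3g had at most 2.43 FPKM in any library and were under the filter. Which cells carried these transcripts was not tested.

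The sequences below show what the 2 BAF53 genes carry at their promoters and at the microRNA site of Actl6a. Promoters are RefSeq sequences of GRCm38.p6, from 250 bases before to 50 bases after the annotated start, and capitals mark the GC box letters GGGCGG and the right-hand part of the RE1 element, GGACAG, on either strand (RE1 is bound by REST, which represses neuronal genes outside neurons).
Actl6b promoter, chr5:137553296-137553595, plus strand: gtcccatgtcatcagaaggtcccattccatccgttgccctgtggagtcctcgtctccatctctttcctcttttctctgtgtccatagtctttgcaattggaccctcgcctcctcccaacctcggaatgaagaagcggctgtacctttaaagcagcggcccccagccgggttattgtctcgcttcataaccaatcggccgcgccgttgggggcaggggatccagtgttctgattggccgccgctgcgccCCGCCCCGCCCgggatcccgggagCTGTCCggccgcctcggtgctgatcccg
Actl6a promoter, chr3:32708296-32708595, plus strand: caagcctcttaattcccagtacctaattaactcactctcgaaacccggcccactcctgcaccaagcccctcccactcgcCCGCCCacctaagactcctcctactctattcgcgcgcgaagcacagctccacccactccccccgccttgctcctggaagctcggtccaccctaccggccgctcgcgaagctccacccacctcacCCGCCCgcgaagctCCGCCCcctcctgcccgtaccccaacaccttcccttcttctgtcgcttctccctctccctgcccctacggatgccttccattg
The Actl6b window held 2 GC boxes, which overlap by 1 base, and 1 RE1 right-hand part, and the Actl6a window held 3 GC boxes and no RE1 right-hand part. Over 32851 RefSeq promoters of this length, 35.7% held GGGCGG and 22.2% held GGACAG. Both windows were rich in G and C, at 61.7% with 23 CpG in Actl6b and 63.7% with 21 CpG in Actl6a, against a median of 52.7% and 7 CpG over all promoters.

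Below, the microRNA has its seed (bases 2 to 8) in capitals, and the site in the 3′ UTR of Actl6a has the 7 complementary letters in capitals.
miR-9-3p: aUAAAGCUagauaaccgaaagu
Actl6a site, chr3:32726630-32726656, plus strand: caacgtctgtAGCTTTAgtacactcag
The 371-base 3′ UTR of the GENCODE M21 transcript Actl6a-201 held this site once, in the GRCm38 genome. The same letters stood in the first 371 bases of 2.84% of 14913 3′ UTRs at least that long. None of the other 9 genes had a match in the 3′ UTR examined, although their UTRs differ in length and the long ones were searched over more bases. A match of letters is a description and does not show binding.

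Promoters of 9 of the 10 genes were found in the RefSeq table. The Actl6a and Smarcd3 windows lie inside the deposited gene coordinates. They are therefore not at the outermost start of these genes (32706298 for Actl6a and 24624411 for Smarcd3). GGGCGG occurred in 8 of these 9 windows, all but that of Dpf2. The RE1 right-hand part occurred in Actl6b and Dpf2, while the left-hand part TTCAGCACC (0.371% of promoters), the cyclic AMP response element TGACGTCA (1.79%) and the TATA box letters TATAAA (13.6%) occurred in none of the 9. The Phf10 window was the richest of the 9 in G and C, at 87.0% with 62 CpG, and the Dpf3 window the poorest, at 55.3% with 17 CpG.

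Actl6b (ENSMUSG00000029712.14, chromosome 5, 137553517 to 137569582, plus strand, mm10) is the gene that the siRNA was directed against, and its mRNA did not differ detectably between the groups. It had 42.79 and 39.6 FPKM in Baf53b siRNA, 43.8 and 43.9 in the scrambled siRNA libraries, and 42.86 and 44.1 in control. Both Baf53b siRNA libraries lay below all 4 others, the first by less than its own counting error. The means were 41.2 ± 2.24 FPKM in Baf53b siRNA, 43.8 ± 0.0883 in scrambled siRNA and 43.5 ± 0.888 in control (SD, n = 2 each). Between 444 and 623 fragments per library stood behind these values, a counting error of 4.01% to 4.74%. On the log2(FPKM + 1) scale, on which all differences below are given, Baf53b siRNA differed from scrambled siRNA by -0.09 ± 0.12 (SE; limma, Benjamini-Hochberg adjusted p = 1 over 14664 genes). Without Baf53b siRNA replicate 1 it was -0.14, and without Baf53b siRNA replicate 2 it was -0.03. The 95% interval ran from -0.38 to 0.21, that is from -23.3% to 15.4% of FPKM + 1, so a decrease of up to that lower bound was within it. In bulk tissue, fewer cells of a type and less RNA per cell cannot be told apart. A change in BAF53B protein was not measured here.

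Actl6a (ENSMUSG00000027671.14, chromosome 3, 32706298 to 32726973, plus strand) encodes BAF53A, the form of dividing and non-neuronal cells, which also serves the INO80 and TIP60 complexes. It had 6.34 and 5.98 FPKM in Baf53b siRNA, 6.36 and 4.12 in the scrambled siRNA libraries, and 5.59 and 3.65 in control. Replicate 2 of scrambled siRNA and of control were the low libraries, and the ranges of Baf53b siRNA and scrambled siRNA overlapped. Baf53b siRNA differed from scrambled siRNA by 0.22 ± 0.24 (95% interval -0.34 to 0.78) and from control by 0.37 ± 0.24 (-0.20 to 0.93), both with a limma adjusted p of 1. Without scrambled siRNA replicate 2 the first difference was -0.04 and without scrambled siRNA replicate 1 it was 0.48. The second was 0.12 without control replicate 2 and 0.62 without control replicate 1 (limma unadjusted p = 0.0485, adjusted p = 0.509). The value rests on 89.6 to 114 fragments per library, a counting error of 9.37% to 10.6%.

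The BAF45 position is taken by PHD finger proteins that read histone tails. Dpf1 (BAF45B, ENSMUSG00000030584.14, chromosome 7, 29303951 to 29318243, plus strand), a neuron-type form, had 27.7 and 21.5 FPKM in Baf53b siRNA, 26.2 and 23.9 in the scrambled siRNA libraries, and 28.1 and 22.4 in control. Replicate 1 was the higher library in every group, and the 3 groups overlapped throughout. Dpf3 (BAF45C, ENSMUSG00000021221.15, chromosome 12, 83213745 to 83487716, minus strand), known also for its role in heart and muscle development, was the lowest of the 10 genes. It had 1.47 and 1.32 FPKM in Baf53b siRNA, 1.48 and 1.81 in the scrambled siRNA libraries, and 2.02 and 2.24 in control.

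The groups of Dpf3 were apart in all 3 comparisons, with Baf53b siRNA lowest and control highest. The share of all genes with groups apart in all 3 was not counted, so this order is a description only. Its difference between Baf53b siRNA and control was -0.39 ± 0.16 (95% interval -0.77 to -0.00077), with an unadjusted limma p of 0.0497 and an adjusted p of 0.993. With the replicate block the interval included 0 (limma adjusted p = 0.625). It included 0 as well with a pseudocount of 0.1, no filter, small RNA genes kept and the compared groups alone, where the unadjusted limma p ran up to 0.0722. It also included 0 with any 1 of the 6 libraries left out. Baf53b siRNA differed from scrambled siRNA by -0.14 ± 0.16, and scrambled siRNA from control by -0.25 ± 0.16, with adjusted p = 1 for both. Only 16.6 to 42.1 fragments per library stood behind Dpf3, a counting error of 15.4% to 24.6%, and the deposited intervals of all 6 libraries overlapped.

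Phf10 (BAF45A, ENSMUSG00000023883.13, chromosome 17, 14945009 to 14961273, minus strand) belongs to the PBAF form of the complex and to neural progenitors. It had 19.7 and 22.3 FPKM in Baf53b siRNA, 20.7 and 19.9 in the scrambled siRNA libraries, and 19.5 and 19.2 in control. Dpf2 (BAF45D, ENSMUSG00000024826.14, chromosome 19, 5896516 to 5913010, minus strand), which most cell types express, had 17.1 and 16.3 FPKM in Baf53b siRNA, 19.7 and 15.8 in the scrambled siRNA libraries, and 18.7 and 14.9 in control. For Phf10 the highest library was Baf53b siRNA replicate 2, and for Dpf2 replicate 1 was higher in every group. Differences between Baf53b siRNA and scrambled siRNA were 0.05 ± 0.13 for Phf10 and -0.07 ± 0.17 for Dpf2 (SE; limma adjusted p = 1 for both).

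Ss18l1 (ENSMUSG00000039086.9, chromosome 2, 180042509 to 180070201, plus strand) encodes CREST, a coactivator that acts in calcium-dependent transcription and dendrite growth. It had 11.6 and 11.3 FPKM in Baf53b siRNA, 11.5 and 11.9 in the scrambled siRNA libraries, and 13.2 and 10.6 in control. The 2 control libraries were the highest and the lowest of the 6. Its paralog Ss18 (ENSMUSG00000037013.15, chromosome 18, 14624198 to 14682914, minus strand), the subunit fused to SSX in synovial sarcoma, had 6.51 and 8.35 FPKM in Baf53b siRNA, 6.73 and 6.34 in the scrambled siRNA libraries, and 6.34 and 5.96 in control. Baf53b siRNA replicate 2 stood above the other 5 libraries, which lay within 5.96 to 6.73 FPKM. Ss18 differed between Baf53b siRNA and scrambled siRNA by 0.15 ± 0.16, and without Baf53b siRNA replicate 2 by -0.0039 (limma adjusted p = 1 in both fits).

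Smarcd3 (BAF60C, ENSMUSG00000028949.13, chromosome 5, 24590818 to 24624411, minus strand), a subunit that links the complex to tissue-specific transcription factors, had 37.1 and 30.3 FPKM in Baf53b siRNA, 36.4 and 31.4 in the scrambled siRNA libraries, and 34.9 and 32.9 in control. Smarcd1 (BAF60A, ENSMUSG00000023018.4, chromosome 15, 99702287 to 99713995, plus strand), the widely expressed form, had 30.4 and 25.3 FPKM in Baf53b siRNA, 31.3 and 25.9 in the scrambled siRNA libraries, and 31.4 and 24.5 in control. In both genes replicate 1 was above replicate 2 in every group, and the groups overlapped. The differences between Baf53b siRNA and scrambled siRNA were -0.01 ± 0.15 for Smarcd3 and -0.04 ± 0.18 for Smarcd1. Exons of Smarcd3 share 2466 bases with Chpf2 on the opposite strand, and those of Actl6a share 452 with Mrpl47 and those of Phf10 share 470 with 1600012H06Rik. The library kit keeps strand, but whether the counting used it is not given in the sources used here.

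**Figure D1:**
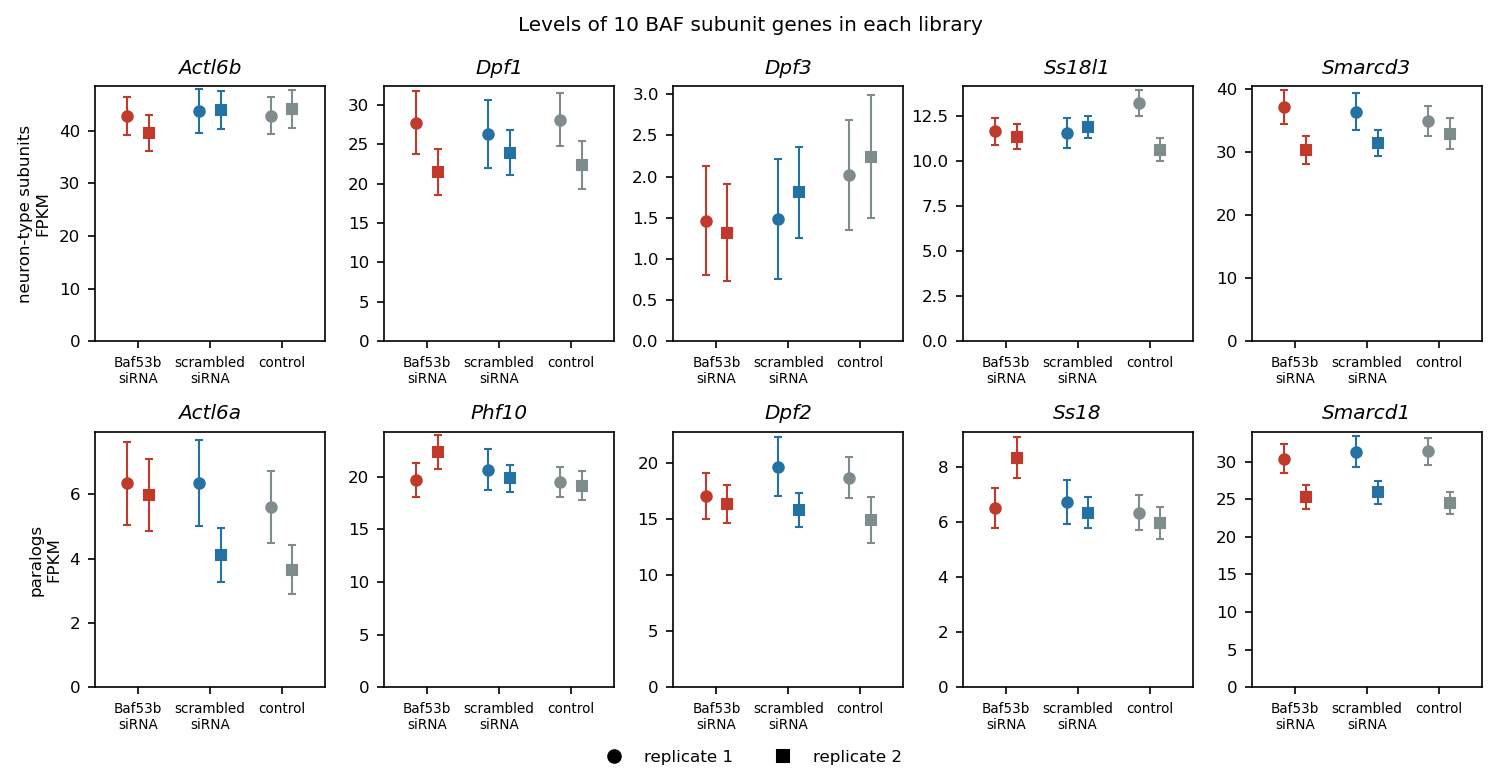
FPKM (y axis, linear, from 0, own scale per gene) of the 5 neuron-type genes (top) and their 5 paralogs (bottom) in each library, with circles for replicate 1, squares for replicate 2 and bars for the deposited interval. Baf53b siRNA, scrambled siRNA and control run from left to right; Actl6b stays between 39.6 and 44.1 FPKM, while Actl6a ranges between 3.65 and 6.36 FPKM with the 2 lowest libraries being replicate 2 of control and of scrambled siRNA.

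Over the 6 libraries the order of mean levels was Actl6b (42.8 ± 1.67 FPKM, SD), Smarcd3 (33.8 ± 2.74), Smarcd1 (28.1 ± 3.24), Dpf1 (25.0 ± 2.79), Phf10 (20.2 ± 1.17), Dpf2 (17.1 ± 1.81), Ss18l1 (11.7 ± 0.856), Ss18 (6.71 ± 0.845), Actl6a (5.34 ± 1.17) and Dpf3 (1.72 ± 0.361). Neighbours in this order whose ranges overlapped were Smarcd3 and Smarcd1, Smarcd1 and Dpf1, Dpf1 and Phf10, Phf10 and Dpf2, and Ss18 and Actl6a. Within a library the order was the same in all 6, except that Phf10 was above Dpf1 in Baf53b siRNA replicate 2. The neuron-type forms were thus both the highest (Actl6b) and the lowest (Dpf3) of the 10. Actl6b also varied least, its highest library being 11.4% above its lowest, against 73.9% for Actl6a and 70.1% for Dpf3.

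No member passed an adjusted p of 0.05 in any comparison. Against scrambled siRNA, limma called 0 of the 10 genes in Baf53b siRNA, where 0.123% of all 14664 genes were called (18 genes), and 0 of the 10 had an unadjusted p under 0.05, beside 3.03% of all genes. Against control, 0 of the 10 were called in Baf53b siRNA, where 1.23% of all genes were called (181 genes), and 1 of the 10, Dpf3, had an unadjusted p under 0.05, beside 5.02% of all genes. Between scrambled siRNA and control, 0 of the 10 were called, where 0% of all genes were called, and 0 of the 10 had an unadjusted p under 0.05, beside 2.22% of all genes (325 genes). The widest 95% interval against scrambled siRNA was that of Actl6a and the narrowest that of Actl6b, so a change of the size of those bounds could have gone undetected.

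The 5 neuron-type genes had a median difference of -0.04 between Baf53b siRNA and scrambled siRNA, and all 5 were below 0, as were 49.0% of all genes, whose median was 0.0026. Neuronal markers lay on the same side in this comparison: 9 of 9 general (median -0.07), 6 of 6 excitatory (-0.13) and 5 of 5 inhibitory markers (-0.07) were below 0, with 0 called by limma and 0 at an unadjusted p under 0.05. Their paralogs had a median of 0.05, with 3 above and 2 below 0. Against control the medians in Baf53b siRNA were -0.04 for the neuron-type genes, with 5 of 5 below 0, and 0.11 for the paralogs, with 5 of 5 above 0 as deposited and Dpf2 and Smarcd1 below 0 under each of the other scalings. The median over all genes was 0.04, with 39.3% below 0. Between scrambled siRNA and control the medians were -0.0031 and 0.07, beside 0.04 over all genes. The 3 comparisons share libraries, and signs of several of these small differences turned with the scaling (also Actl6b and Smarcd1 in scrambled siRNA against control) or with 1 library left out.

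Groups did not overlap for 2 of the 10 genes between Baf53b siRNA and scrambled siRNA (Actl6b and Dpf3, both lower), beside 22.1% of all genes. Between Baf53b siRNA and control this held for 5 of the 10 (Actl6b and Dpf3 lower, Actl6a, Phf10 and Ss18 higher), beside 23.8% of all genes. Between scrambled siRNA and control it held for 2 of the 10 (Dpf3 lower, Phf10 higher), beside 18.3% of all genes.

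**Figure D2:**
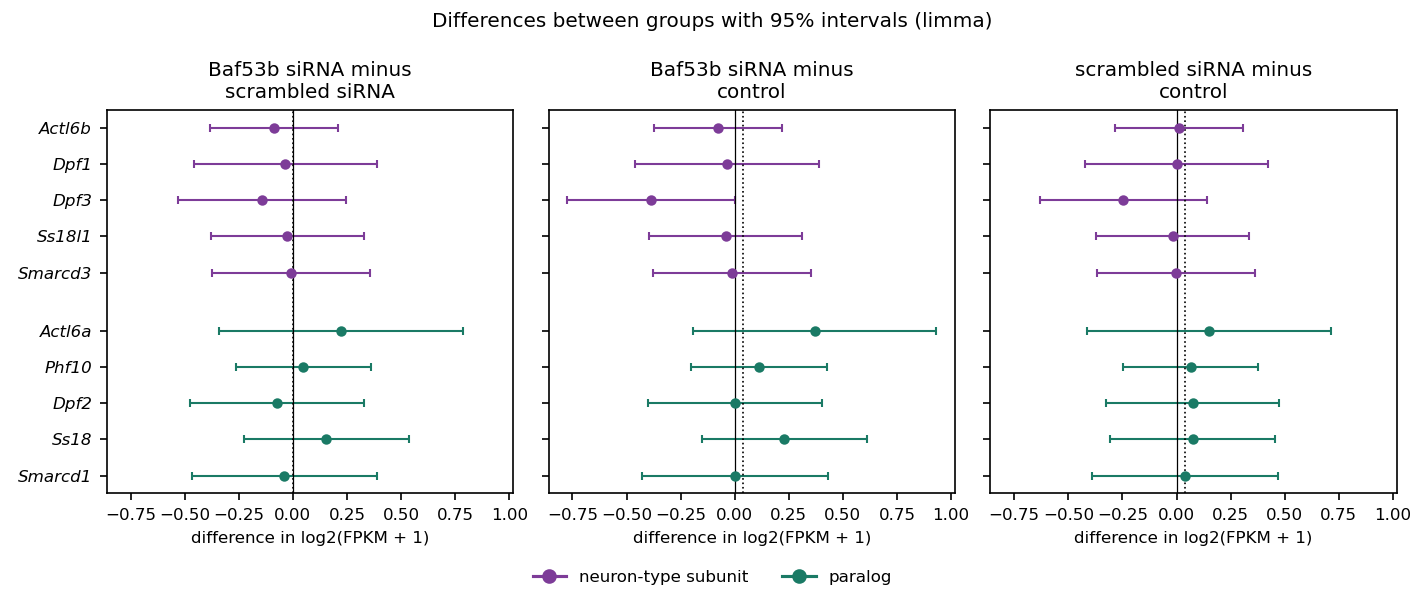
Difference in log2(FPKM + 1) between groups (x axis) for each gene (y axis), with bars for the 95% interval of limma and a dotted line at the median of all genes tested. Each interval includes 0 except that of Dpf3 between Baf53b siRNA and control, which ends at -0.00077. This interval included 0 under 5 other settings and with any 1 library left out. It excluded 0 under median-of-ratios, quantile and mitochondria-free scaling and robust eBayes. The interval of Actl6a is the widest in each panel.

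FPKM is scaled by transcript length, so a neuron-type form can be set against its paralog within a library. The BAF53 position showed the most one-sided ratio: Actl6b over Actl6a was 6.75 and 6.63 in Baf53b siRNA, 6.89 and 10.7 in scrambled siRNA, and 7.66 and 12.1 in control. Both Baf53b siRNA libraries had lower ratios than the other 4, yet scrambled siRNA replicate 1 lay beside them, and its counting interval (5.49 to 8.64, 95%) covered both. In log2 units the ratio in Baf53b siRNA differed by -0.36 from scrambled siRNA and by -0.52 from control, beside SDs of 0.02 in Baf53b siRNA, 0.44 in scrambled siRNA and 0.46 in control. The two-sided exact permutation p was 0.333 for both, the smallest that 2 against 2 libraries allow (adjusted p = 1 over 12 tests). Leaving out 1 library at a time gave -0.67 to -0.04 against scrambled siRNA and -0.85 to -0.20 against control, the smaller value in each being without replicate 2 of scrambled siRNA and of control.

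At the BAF45 position the neuron-type forms, summed, were below their paralogs, summed. Dpf1 alone was 1.32 to 1.63 times Dpf2 over the libraries. It was 0.962 times Phf10 in Baf53b siRNA replicate 2 and 1.17 to 1.44 times Phf10 in the other libraries. The ratio of Dpf1 plus Dpf3 to Phf10 plus Dpf2 was 0.795 and 0.590 in Baf53b siRNA, 0.687 and 0.723 in scrambled siRNA, and 0.788 and 0.722 in control. The 2 Baf53b siRNA libraries were the highest and the lowest, so the groups overlapped. Within the neuron-type pair, Dpf1 exceeded Dpf3 by 18.9 and 16.3 times in Baf53b siRNA, 17.7 and 13.3 times in scrambled siRNA, and 13.9 and 9.97 times in control, a ratio set by few Dpf3 fragments.

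Ss18l1 over Ss18 was 1.79 and 1.36 in Baf53b siRNA, 1.71 and 1.87 in scrambled siRNA, and 2.08 and 1.78 in control, with Baf53b siRNA replicate 2 the lowest. Its log2 difference was -0.20 against scrambled siRNA and -0.31 against control (exact permutation p = 0.667 for both). With 1 library left out these values ranged over -0.40 to -0.0045 and -0.51 to -0.11, the smaller in size being without Baf53b siRNA replicate 2 and the larger without Baf53b siRNA replicate 1. Smarcd3 over Smarcd1 was 1.22 and 1.20 in Baf53b siRNA, 1.16 and 1.21 in scrambled siRNA, and 1.11 and 1.34 in control, the narrowest span of log2 ratios among the 4 positions. All 5 neuron-type genes over all 5 paralogs gave 1.51 and 1.33 in Baf53b siRNA, 1.41 and 1.57 in scrambled siRNA, and 1.49 and 1.65 in control. As shares of the summed FPKM of the genes compared, neuron-type transcripts made up 86.9% to 92.4% for BAF53, 37.1% to 44.3% for BAF45, 57.6% to 67.6% for SS18 and 52.7% to 57.3% for BAF60. Smarcd2 (BAF60B), a further BAF60 gene outside the 10, had 3.02 to 4.25 FPKM, and with it in the sum Smarcd3 made up 49.5% to 54.5%. None of the 12 ratio tests had an adjusted p under 1.

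**Figure D3:**
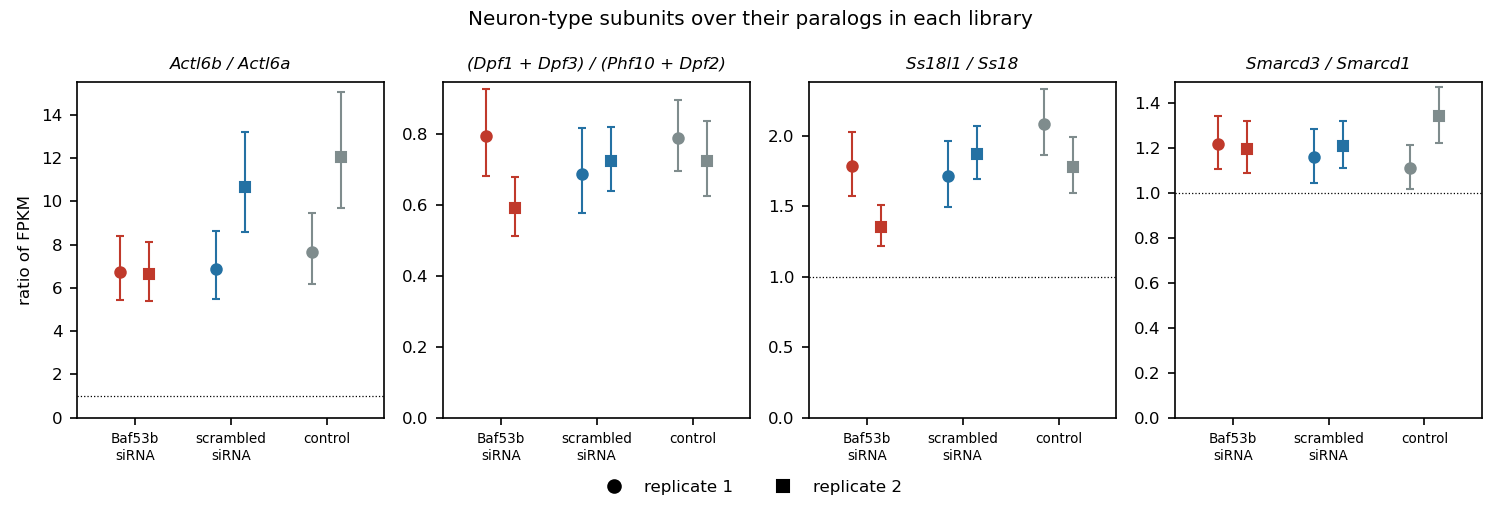
Ratio of neuron-type to paralog FPKM (y axis, linear, from 0) in each library for the 4 positions, with bars for the 95% counting interval and a dotted line at a ratio of 1 where it falls within the axis. Actl6b over Actl6a is between 6.63 and 12.1, the BAF45 ratio is below 1 in all 6 libraries, and the other 2 ratios are above 1.

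The labels number the replicates without saying what a number marks. Replicate 1 was above replicate 2 in all 3 groups for 5 of the 10 genes (Actl6a, Dpf1, Dpf2, Smarcd1 and Smarcd3), beside 37.1% of all genes. In a limma fit with group and replicate, 0 of the 10 passed an adjusted p of 0.05, where 0.327% of all genes did, and these same 5 had an unadjusted p under 0.05, as did 26.7% of all genes. Smarcd1 differed by 0.29 ± 0.07 (adjusted p = 0.0727), Dpf1 by 0.27 ± 0.08 (adjusted p = 0.108) and Actl6a by 0.37 ± 0.13 (adjusted p = 0.148). The 5 other genes differed by -0.06 (Dpf3) to 0.10 (Ss18l1), with Actl6b at 0.02 ± 0.07.

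The share of FPKM taken by mitochondrial genes also went with the replicate number. It was 19.3% and 22.8% in Baf53b siRNA, 15.0% and 26.9% in scrambled siRNA, and 19.4% and 29.5% in control, in each group higher in replicate 2. With mitochondrial genes left out and values rescaled to the same total in each library, the median difference between replicates over all genes was -0.0019, against 0.10 as deposited. Smarcd1 then differed by 0.19 in the limma fit (unadjusted p = 0.0420, adjusted p = 0.247), and no other of the genes had an unadjusted p under 0.05. Actl6a still differed by 0.44 in scrambled siRNA and by 0.44 in control, and by 0.02 in Baf53b siRNA. A ratio within a library does not depend on this scaling, so the values of Actl6b over Actl6a are as given above.

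**Figure D4:**
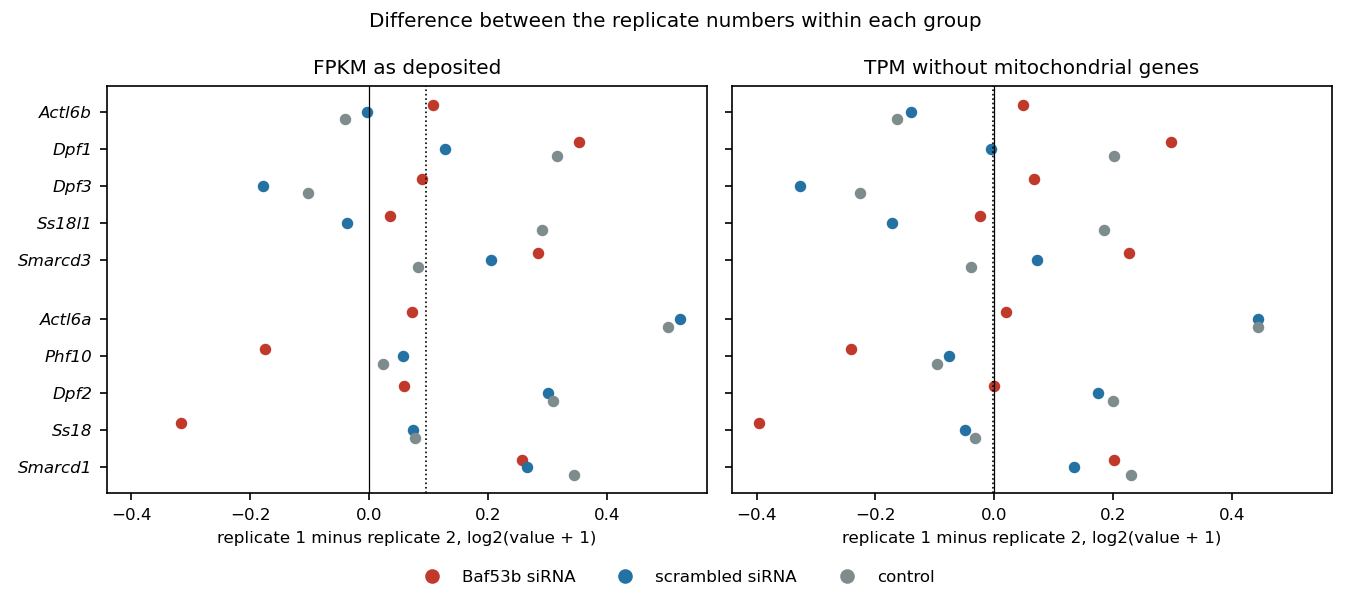
Replicate 1 minus replicate 2 in log2(value + 1) (x axis) for each gene (y axis) in each group, from FPKM as deposited (left) and after removal of mitochondrial genes (right), with a dotted line at the median of all genes tested. Smarcd1 lies to the right of 0 in all 3 groups in both panels, and Actl6a has a difference of over 0.4 in scrambled siRNA and control but lies near 0 in Baf53b siRNA.

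The other subunits showed no detected change either. Of 21 other BAF subunit genes tested, 0 were called by limma in any of the 3 comparisons and 0 had an unadjusted p under 0.05, and their median difference was -0.01 between Baf53b siRNA and scrambled siRNA, with a range of -0.13 to 0.14. The most abundant were Actb, which encodes the actin subunit and much else of the cell's actin (mean 309 FPKM), Smarca2, which encodes the ATPase BRM (119 FPKM), and Smarcc2, which encodes the core subunit BAF170 (57.3 FPKM). The 2 with the smallest unadjusted p were Brd7, a PBAF bromodomain protein, and Brd9, its relative in the non-canonical complex. Brd7 had 25.4 and 25.5 FPKM in Baf53b siRNA, against 29.5 and 26.4 FPKM in scrambled siRNA (difference -0.13 ± 0.13, limma unadjusted p = 0.352, adjusted p = 1). Brd9 had 18.9 and 20.7 FPKM in Baf53b siRNA, against 21.4 and 21.8 FPKM in scrambled siRNA (difference -0.12 ± 0.13, adjusted p = 1).

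Paralogs such as Actl6a are expressed outside neurons, so marker sums are given beside their values. Of the 12 dividing cell or progenitor markers 6 passed the filter, and of these limma called 0 between the groups, with 0 at an unadjusted p under 0.05. The sums over all 12 were 74.5 to 81.5 FPKM in Baf53b siRNA, 69.8 to 74.3 in scrambled siRNA and 72.7 to 74.5 in control, of which Pcna, Hes5 and Sox2 made up 76.5% to 83.9%. The proliferation markers Mki67, Top2a and Cdk1 were under the filter and so untested. Mki67 had 0.410 and 0.841 FPKM in Baf53b siRNA, 0.165 and 0.241 in scrambled siRNA, and 0.180 and 0.197 in control. Cdk1 had 1.27 and 1.44 FPKM in Baf53b siRNA, 1.12 and 0.777 in scrambled siRNA, and 0.625 and 0.0334 in control. For both genes the 2 Baf53b siRNA libraries were above the other 4. For Top2a they overlapped the other 4, as they did for Mcm2 and Nes, also under the filter. Pcna, which was tested, had 26.3 and 26.1 FPKM in Baf53b siRNA, 28.4 and 26.3 in scrambled siRNA, and 22.4 and 30.7 in control. The share of all genes with both Baf53b siRNA libraries above the other 4 was not counted. The order of Mki67 and Cdk1 is therefore a description of low values only. Eomes, a marker of intermediate progenitors, was under 0.1 FPKM in every library. Microglia markers called against control in Baf53b siRNA numbered 7 of 10, and 4 of 4 tested leukocyte markers were called there. Against scrambled siRNA, 0 of 10 microglia markers (6 at an unadjusted limma p under 0.05) and 3 of 4 leukocyte markers were called. The leukocyte markers called there were Cd74, H2-Aa and H2-Ab1, while Ptprc was not called. The part of these cells in the values of Actl6a, Phf10 and Ss18, the 3 paralogs that lay above control in both Baf53b siRNA libraries, was not tested.

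Among 12528 protein-coding genes, those whose log2(FPKM + 1) was most alike to Actl6b over the 6 libraries were Slc37a3 (Pearson r = 0.985), St6galnac5 (0.980) and Dohh (0.973), and 60 genes had an r over 0.9. For Actl6a they were Atg16l2 (r = 0.998), Secisbp2 (0.996) and Trim11 (0.992), and 634 genes had an r over 0.9. Atg16l2 had 15.5 and 14.9 FPKM in Baf53b siRNA, 15.2 and 10.5 in the scrambled siRNA libraries, and 13.7 and 9.73 in control, with the same 2 low libraries as Actl6a. These values share libraries, scaling and the mitochondrial share, and are a description over 6 points.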

How the data were processed

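RNA of the lateral amygdala was selected with oligo-dT beads, made into stranded libraries and sequenced from both ends, per the labels' protocols. bcl2fastq 2.19.1.403, TopHat2 2.1.1, Cufflinks 2.2.1 and mm10 were used per the submitters' processing notes. The sources used here name no settings or annotation release. Each table, as the authors deposited it, gives FPKM per gene with interval bounds and a status for 50383 gene IDs, of which 48 had several rows, summed here. Read counts were not used here. Fragments were estimated by taking the half-width of an interval as 2 standard errors of a count, which covers counting error only.

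Values were log2(FPKM + 1). Genes with a mean of at least 1 FPKM were tested without 353 small RNA genes and 4 genes of failed status, leaving 14664. A group-means model over the 6 libraries was run in R 4.3.3 with limma 3.58.1 (trended eBayes; 3 residual degrees of freedom, prior 3.99), two-sided, with Benjamini-Hochberg adjustment at 0.05. The fit was also run on simulated data with independent noise and no replicate effect. That setting leaves out the replicate differences of these libraries, so it cannot check their p-values. Ratios were compared by exact permutation over libraries. The 3 comparisons share groups. Replicate differences of the groups correlated over genes at 0.390 (scrambled siRNA and control), 0.183 (Baf53b siRNA and control) and 0.359 (Baf53b siRNA and scrambled siRNA), so the replicate numbers were taken as pairs in an alternative fit.

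The genes and lists were chosen with earlier results of these data known. All 10 genes are named. Of the other BAF subunits the 3 highest and the 2 of smallest unadjusted p against scrambled siRNA are named, and for Actl6b and Actl6a the 3 protein-coding genes of highest correlation. Coordinates are those of the deposited tables (mm10). Sequences come from RefSeq (GRCm38.p6) and GENCODE M21 (GRCm38), the assembly behind mm10, and no protein sequence was used here. Alternatives covered the pseudocount, the filter, small RNA genes, scaling, the replicate block, the groups fitted, robust eBayes and leaving out each library.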

Additional observations from a re-analysis of the deposited data

Results flagged for a closer look

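Synthetic spike-in RNA, not described in the labels and used in no comparison, had more signal in both siRNA groups than in control. They summed to 4825 and 811 FPKM in Baf53b siRNA and to 207 and 656 FPKM in scrambled siRNA, against 117 and 125 FPKM in control. At most 0.755% of the FPKM of a library fell on them.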

How the results depend on the processing

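No alternative called any of the 10 genes, and the replicate block changed no call of a member (13, 188 and 0 genes called). Ratios could not be called with or without the block, since 2 libraries per group cannot give a permutation p under 0.05. Genes called in Baf53b siRNA against scrambled siRNA, 18 as reported, became 1 with a pseudocount of 0.1, 0 without a filter (1497 at an unadjusted p under 0.05), 8 at a mean of at least 5 FPKM, 5 with small RNA genes and 30 with robust eBayes. Against control, 181 became 42 without a filter and 71 at 5 FPKM. Scrambled siRNA against control gave 1 with the compared groups alone. Between replicates, 48 became 806 at 5 FPKM, 18 by median-of-ratios, 26 by quantile scaling, 18 without mitochondrial genes, and 93, 3 and 12 without the control, scrambled siRNA and Baf53b siRNA groups. Leaving out 1 library gave 4 to 24 genes against scrambled siRNA, 34 to 139 against control and 0 to 7 between scrambled siRNA and control. With median-of-ratios, quantile and mitochondria-free scaling, differences from control turned to -0.050, -0.056 and -0.079 for Dpf2 and -0.051, -0.043 and -0.080 for Smarcd1 in Baf53b siRNA, and to -0.039, -0.037 and -0.050 for Actl6b and -0.011, -0.011 and -0.022 for Smarcd1 in scrambled siRNA. That of Dpf1 in scrambled siRNA was 0.00014 with a pseudocount of 0.1. Replicate differences turned to -0.095, -0.083 and -0.086 for Actl6b and -0.013, -0.018 and -0.0039 for Ss18l1 under these scalings. They were -0.022 for Actl6b, 0.040 for Phf10 and 0.076 for Ss18 without the Baf53b siRNA group, and -0.0014 for Ss18l1 without control. The cause was not tested.

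Leaving out 1 library turned signs as follows. Baf53b siRNA minus scrambled siRNA ranged over -0.040 to 0.48 for Actl6a, -0.21 to 0.14 for Dpf1, -0.22 to 0.077 for Dpf2, -0.040 to 0.13 for Phf10, -0.17 to 0.094 for Smarcd1, -0.15 to 0.13 for Smarcd3 and -0.0039 to 0.31 for Ss18. Baf53b siRNA minus control ranged over -0.21 to 0.14 for Dpf1, -0.15 to 0.16 for Dpf2, -0.17 to 0.17 for Smarcd1, -0.16 to 0.13 for Smarcd3 and -0.19 to 0.10 for Ss18l1. Scrambled siRNA minus control ranged over -0.11 to 0.41 for Actl6a, -0.0092 to 0.032 for Actl6b, -0.16 to 0.16 for Dpf1, -0.081 to 0.23 for Dpf2, -0.13 to 0.21 for Smarcd1, -0.11 to 0.10 for Smarcd3 and -0.16 to 0.13 for Ss18l1. Log2 ratios did so for BAF45 (-0.26 to 0.17 and -0.35 to 0.075) and BAF60 (-0.0028 to 0.061 and -0.15 to 0.12) in Baf53b siRNA against scrambled siRNA and control, and for BAF53 (-0.50 to 0.16), SS18 (-0.22 to 0.0083) and BAF60 (-0.18 to 0.092) in scrambled siRNA against control. Counts against scrambled siRNA were 4 and 5 without control replicate 1 and 2, and 7 and 9 without scrambled siRNA replicate 1 and 2. Counts against control were 65 and 62 without control replicate 1 and 2, and 34 and 81 without Baf53b siRNA replicate 1 and 2. Of the neuron-type genes and their paralogs, Dpf3 (16.6 to 42.1) and Actl6a (89.6 to 114) had the fewest fragments per library. Whether depth set the spread of their values was not tested.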
